A study of Oncorhynchus mykiss with 14 samples.

Results

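Eggs of some rainbow trout females support gynogenesis, in which an embryo develops with maternal chromosomes alone, better than eggs of other females. The comparison described here asked whether this competence was visible in the RNA of the same clutches when the eggs had been fertilized normally. Of the 14 egg libraries in the series, the 7 normally fertilized (control) libraries were taken and set in 2 groups by female. Females F1, F4, F7 and F8 had increased competence for gynogenesis, and females F2, F3 and F6 had decreased competence, as the study classed them by survival of their gynogenetic offspring. The expression values played no part in this grouping. The study's own clustering of gynogenetic eggs, on expression of genes that followed survival, placed F1 with F2, F3 and F6 in the low-survival cluster. The place of F1 in the increased group thus rests on the survival classes alone. All were 5-year-old females of the Rutki strain. The labels print XX and doubled haploid as the genotype of all 14 libraries, the normally fertilized ones included, and do not say whether this means the females or the offspring. In the control arm the eggs met non-irradiated rainbow trout sperm and received no pressure shock. The other 7 libraries came from eggs of the same females activated with UV-irradiated European grayling sperm. In that arm high hydrostatic pressure was used to restore diploidy. Each library was made from polyadenylated RNA of 2 to 3 eggs of 1 female, so each group member is 1 clutch, and egg-to-egg variation within a clutch was averaged in the pool. The labels give no sequencing batch or date.

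An ovulated fish egg carries a store of maternal RNA and protein made during oogenesis. This store drives the first cleavages, because the embryo's own genome is largely silent until the mid-blastula transition. RNA sampled before that transition is therefore mainly maternal. The study collected the eggs directly after treatment. It does not state whether the gynogenetic eggs were taken before or after the pressure shock. In polyadenylated RNA, a transcript whose poly(A) tail is short at the time of sampling is captured poorly, as well as one that is present in small amounts.

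The control libraries held between 34535902 and 57014149 read counts assigned to genes in the increased group and between 45735498 and 56474502 in the decreased group. The annotation lists 64494 genes, and the 30524 whose average over these 7 libraries exceeded 1 normalized count were tested. Normalized counts are counts divided by a size factor that brings the libraries to a common scale. The list of oocyte genes matched no identifier, so the levels of 2 other transcripts known from fish eggs are given. They are a description and not a test of the egg label. The gene of a zona pellucida sperm-binding protein 4-like egg-coat protein (ENSOMYG00000006886) had 7867 to 16821 normalized counts over the 7 control libraries. Cyclin B1 (ccnb1), which drives entry into M phase and is stored in fish oocytes, had 82523 to 139384. Markers of follicle cells, blood, liver or sperm could not be matched to gene identifiers, so RNA from such cells was not examined. Less RNA per egg of a transcript and a change in the make-up of the pooled material cannot be told apart in these libraries.

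Competence was not the main axis of variation among control libraries. The first 3 principal components of log2(normalized count + 1) carried 21.9%, 18.8% and 17.1% of the variance. F6 of the decreased group lay beside F8 of the increased group on the first component, and F2 and F3 lay near F1 on the first and second. Across genes, the mean Pearson correlation of 2 libraries was 0.910 for the 6 pairs within the increased group and 0.919 for the 3 pairs within the decreased group, against 0.916 for the 12 pairs that crossed the groups. Genes are not independent replicates, and these correlations are given as a description. F2, F3, F6 and F7 had their closest library in their own group, while F1, F4 and F8 had it in the other group.

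**Figure D1:**
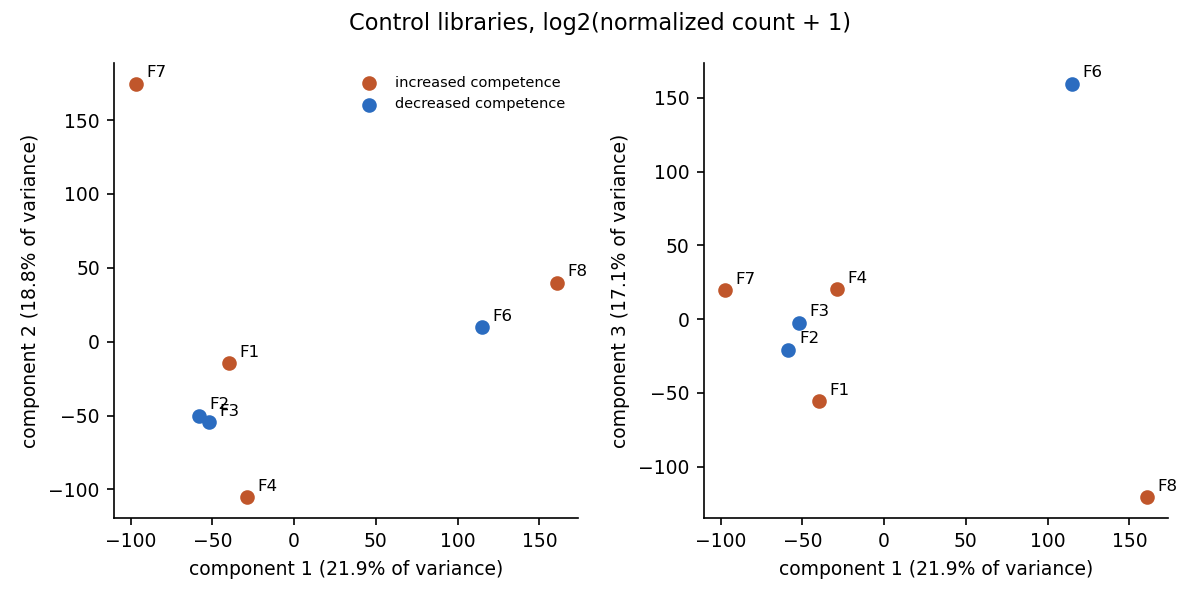
Principal components 1, 2 and 3 of the 7 control libraries, from log2(normalized count + 1) of the 30524 genes tested, with each point 1 female. Orange points are the 4 females with increased competence and blue points the 3 with decreased competence; the colours are mixed along the first component, which carries 21.9% of the variance.

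Of 30524 genes tested, 1 rose and none fell in eggs of females with increased competence, by the edgeR quasi-likelihood test with Benjamini-Hochberg adjustment over all genes. The gene was irs2a (ENSOMYG00000040771). Insulin receptor substrate 2 is an adaptor protein that couples the insulin and insulin-like growth factor receptors to phosphatidylinositol 3-kinase signalling. In mammals it is known for its part in pancreatic beta cells and in female fertility. This is 0.00328% of the genes tested. At an unadjusted edgeR p below 0.05 there were 1136 genes (3.72%), of which 654 were higher and 482 lower with increased competence. The DESeq2 Wald test gave 1304 genes at an unadjusted p below 0.05 and, after adjustment, 55 of 24913 genes with an adjusted p (0.221%), 40 higher and 15 lower. The 2 tools thus differed widely in the number of genes called, and only irs2a was called by both.

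**Figure D2:**
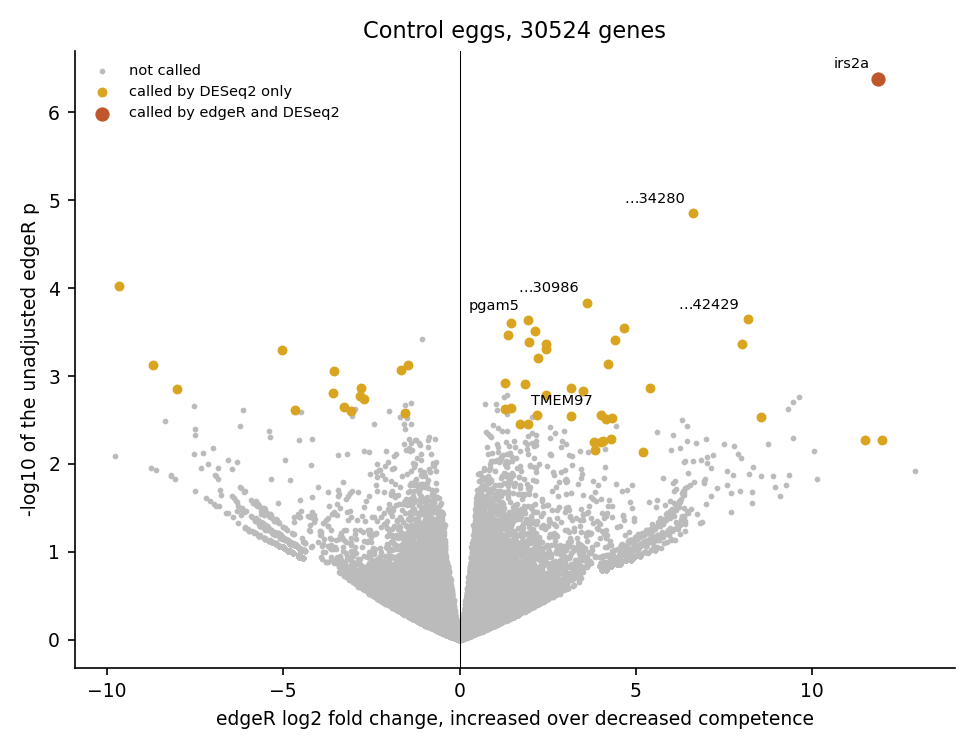
Each point is 1 of 30524 genes in control eggs; the horizontal axis is the edgeR log2 fold change, increased over decreased competence, and the vertical axis is -log10 of the unadjusted p. The orange point is irs2a, called by edgeR and DESeq2; yellow points are the other genes called by DESeq2, and genes without a name are labelled by the last digits of their identifier.

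irs2a had 658, 223, 504 and 529 normalized counts in control eggs of F1, F4, F7 and F8, against 0, 0 and 0 in F2, F3 and F6. The transcript was thus present in every library of the increased group and not detected in any of the decreased group. The mean was 479 ± 183 (SD, n = 4) with increased competence and 0 with decreased competence (n = 3). A count of 0 allows up to 3 counts per library, or 3.27 normalized counts in the library where this limit is highest. The mean of irs2a was thus at least 146-fold higher with increased competence. These limits cover counting error only. The edgeR estimate was 11.86 on the log2 scale (SE 1.01, adjusted p = 0.0127). The estimate and its SE depend on the prior count because 1 group was at 0. The DESeq2 adjusted p was 9.47e-15. An exact two-sided permutation test of the difference in means gave p = 0.0571; with 35 arrangements of 4 and 3 libraries the smallest possible p is 0.0286. The edgeR call was lost without F2 (adjusted p = 0.0578) and when genes with a mean under 10 were left out (adjusted p = 0.0534).

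The gynogenetic libraries of the same clutches gave the same separation. There irs2a had 249, 265, 428 and 445 normalized counts in F1, F4, F7 and F8, against 0, 1.84 and 0 in F2, F3 and F6. Its edgeR adjusted p in gynogenetic eggs was 0.0119, and it was again the single gene called, of 30762 tested (0.00325%). The 2 sets of libraries come from the same 7 females, so the second is a repeat on other eggs of each clutch and not on other females. RefSeq places the gene of this symbol on chromosome 7, from 27743963 to 27765935, in the assembly USDA_OmykA_1.1. The study also designed a primer pair for this transcript, which is printed because it marks the sequence stretch used for RT-qPCR. For irs2a the study ran RT-qPCR on RNA from other eggs of the same females. It describes the correlation with RNA-seq as moderate to low over its RT-qPCR genes, and irs2a had the highest coefficient. Both primers are shown 5′ to 3′ in lower case, with no part set apart.
irs2a forward: ccagagaggcaaggatgagt
irs2a reverse: cccagggatagcctcttctc

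**Figure D3:**
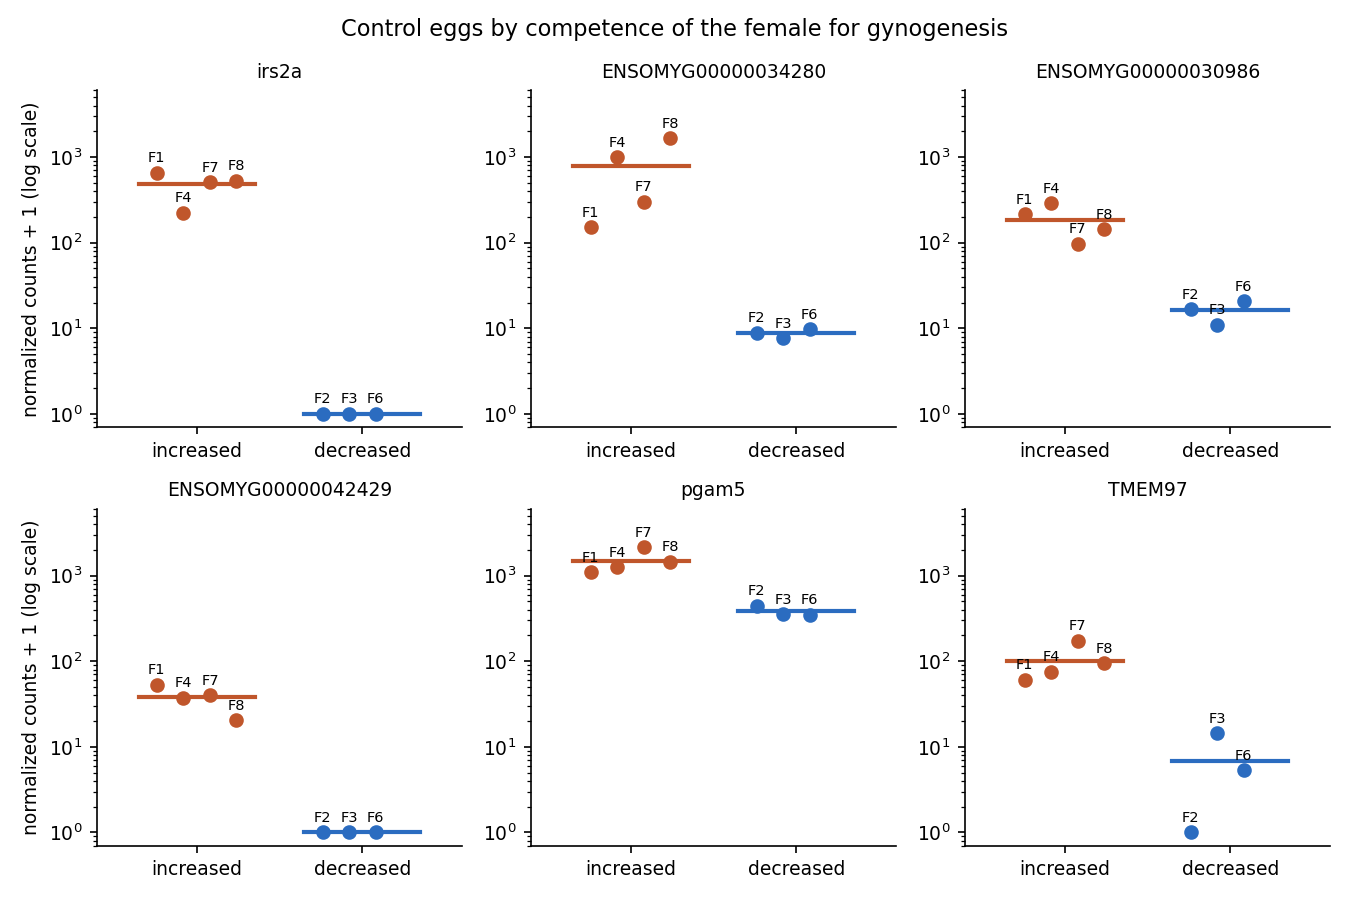
Normalized counts plus 1 on a log axis in control eggs for irs2a, ENSOMYG00000034280, ENSOMYG00000030986, ENSOMYG00000042429, pgam5 and TMEM97. Each point is 1 female, with the 4 females of increased competence (orange) left of the 3 of decreased competence (blue). The line is the group mean plus 1. The groups do not overlap in any of the 6 panels, and irs2a and ENSOMYG00000042429 are at 0 in every blue library. The panels are a selection: ENSOMYG00000061568, ranked 3 by p with overlapping groups, is not shown.

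The gene with the next lowest p, ENSOMYG00000034280, had 150, 1003, 299 and 1668 normalized counts in F1, F4, F7 and F8, against 7.89, 6.67 and 8.73 in F2, F3 and F6. Its levels were close together in the decreased group and widely spread in the increased group, with no overlap. The log2 fold change was 6.63 (SE 0.94), with an edgeR adjusted p of 0.216 and a DESeq2 adjusted p of 7.87e-15. The edgeR test called it when F1 was left out or when no filter on low counts was used. ENSOMYG00000030986 had 214, 287, 96.7 and 143 normalized counts in the increased group, against 15.8, 10.01 and 19.6 in the decreased group. The groups did not overlap, and its log2 fold change was 3.61 (SE 0.66; edgeR adjusted p = 0.890; DESeq2 adjusted p = 3.38e-06). Neither gene has a name in the sources used here.

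irs2a was 1 of a few transcripts with an all-or-none pattern. These were defined as genes with at most 3 counts in every library of 1 group and at least 10 normalized counts in every library of the other. There were 7 such genes present with increased competence (0.0229% of genes tested) and 2 present with decreased competence (0.00655%). By detection alone, with no minimum level, 20 of the 30524 genes tested had a count in every increased and no decreased library. In the other direction, 57 had a count in every decreased and no increased library, so the direction of this imbalance depends on the minimum. The 2 directions are not alike. The increased group holds 4 libraries, among them F7 with the fewest assigned reads, and the decreased group holds 3. Apart from irs2a, 2 of the 7 genes that met the minimum were at 0 in every decreased library. ENSOMYG00000042429 had 52.0, 36.3, 39.3 and 19.5 normalized counts in F1, F4, F7 and F8. Their mean was 11.2-fold above the limit set by 3 counts in the decreased group. ENSOMYG00000070756 had 27.0, 27.2, 15.1 and 62.8, with a mean 10.1-fold above that limit. Of the 7, irs2a and ENSOMYG00000042429 met the same definition in gynogenetic eggs, and neither of the 2 in the other direction did. In that other direction ENSOMYG00000015530 had 0, 0, 0 and 2.17 normalized counts in the increased group, against 13.8, 10.01 and 10.9 in the decreased group.

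Among named genes below the edgeR threshold, pgam5 had the lowest p. A symbol was at hand for 223 of the tested genes only, taken from the study's supplements. pgam5, like ANKLE2, TMEM97 and ARL3 below, is among the genes the study chose on gynogenote survival in these females. PGAM5 is a serine/threonine phosphatase of the mitochondrial membrane with roles in mitochondrial quality control and programmed cell death. It had 1093, 1250, 2160 and 1460 normalized counts in F1, F4, F7 and F8, against 442, 355 and 349 in F2, F3 and F6. Every increased library lay above every decreased one. The means were 1491 ± 471 (SD, n = 4) and 382 ± 51.8 (SD, n = 3), a ratio of 3.90. The log2 fold change was 1.95 (SE 0.37), with an edgeR adjusted p of 0.890, a DESeq2 adjusted p of 3.11e-04 and an exact permutation p of 0.0286, the smallest the design allows. ANKLE2, which encodes an ankyrin repeat and LEM domain protein of the nuclear envelope and endoplasmic reticulum, is the neighbour of pgam5 in RefSeq, with 222 bases between the 2 genes on chromosome 6. It had 4786, 5486, 4694 and 6128 normalized counts in the increased group, against 9211, 7577 and 4877 in the decreased group. Its groups overlapped through F6, and its log2 fold change had the opposite sign to that of pgam5, at -0.46 (SE 0.26; edgeR adjusted p = 0.999).

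TMEM97, which encodes the endoplasmic reticulum protein known as the sigma-2 receptor, had 59.7, 74.4, 172 and 93.1 normalized counts in F1, F4, F7 and F8. In F2, F3 and F6 it had 0, 13.3 and 4.37. The groups did not overlap, and the log2 fold change was 4.00 (SE 1.06; edgeR adjusted p = 0.999; DESeq2 adjusted p = 0.0055). In the lower direction, ARL3, a small GTPase that works in protein traffic to cilia, had 2718, 3077, 2190 and 1555 normalized counts in the increased group, against 4504, 4407 and 4129 in the decreased group. These ranges did not overlap either, with a log2 fold change of -0.87 (SE 0.29; edgeR adjusted p = 0.999; DESeq2 adjusted p = 0.662).

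Of all genes tested, 866 were higher in every increased than in every decreased library (2.84%) and 806 were lower in every one (2.64%), or 1672 together (5.48%). Among the lower genes without a name, ENSOMYG00000023292 had the lowest p of those that did not overlap. It had 5092, 3898, 4633 and 5181 normalized counts in the increased group, against 9412, 8865 and 10805 in the decreased group, a log2 fold change of -1.05 (SE 0.21; edgeR adjusted p = 0.890). Further down, ENSOMYG00000006635, ENSOMYG00000000570 and ENSOMYG00000035816 also lay lower without overlap. The log2 fold changes of ENSOMYG00000006635 and ENSOMYG00000000570 were -5.02 and -1.45. ENSOMYG00000035816 was at 0 in all 4 increased libraries, against 3.95, 112 and 39.3 normalized counts in F2, F3 and F6, so that F2 lay close to the increased libraries. In gynogenetic eggs its groups overlapped, with 6.18, 2.00, 7.84 and 18.2 normalized counts in the increased group, against 0, 173 and 52.3 in the decreased group. In the higher direction ENSOMYG00000016249 and ENSOMYG00000028924 lay apart without overlap, with log2 fold changes of 1.46 and 4.65.

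Of the 55 genes called by DESeq2, 40 had groups that did not overlap and 15 had groups that did. Over all genes tested, 5.48% had no overlap. The 55 were called on these same values, so that share is not a like reference. All 55 were at an unadjusted edgeR p below 0.05. In several of the 15, a subset of clutches carried the difference. ENSOMYG00000061568 had 5.78, 0, 3.02 and 2.17 normalized counts in the increased group, against 3281, 3512 and 2.18 in the decreased group. F6 was thus as low as the increased libraries, and the high values belonged to F2 and F3. ENSOMYG00000022816 had 732 and 736 normalized counts in F1 and F4 and was at 0 in the other 5 control libraries. ENSOMYG00000074762 had 753 and 1315 in F4 and F8 and was at 0 in the other 5. All 3 were chosen for description after their values were seen. In 6 of the 55 genes the 3 decreased libraries were all at 0, and in 2 the 4 increased libraries were all at 0. In gynogenetic eggs of these clutches every one of the 55 had the same sign of difference, and 26 had no overlap in both treatments. Both treatments used the same 7 females, and the sign was also the same for 69.0% of the 29122 genes tested in both and for 93.3% of the 1097 of these with an unadjusted edgeR p below 0.05 in control eggs. Over all genes tested in control eggs, 196 (0.642%) had no overlap in both treatments, in the same direction. Of the 1672 genes with no overlap in control eggs, 11.7% had none in gynogenetic eggs either, in the same direction.

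**Figure D4:**
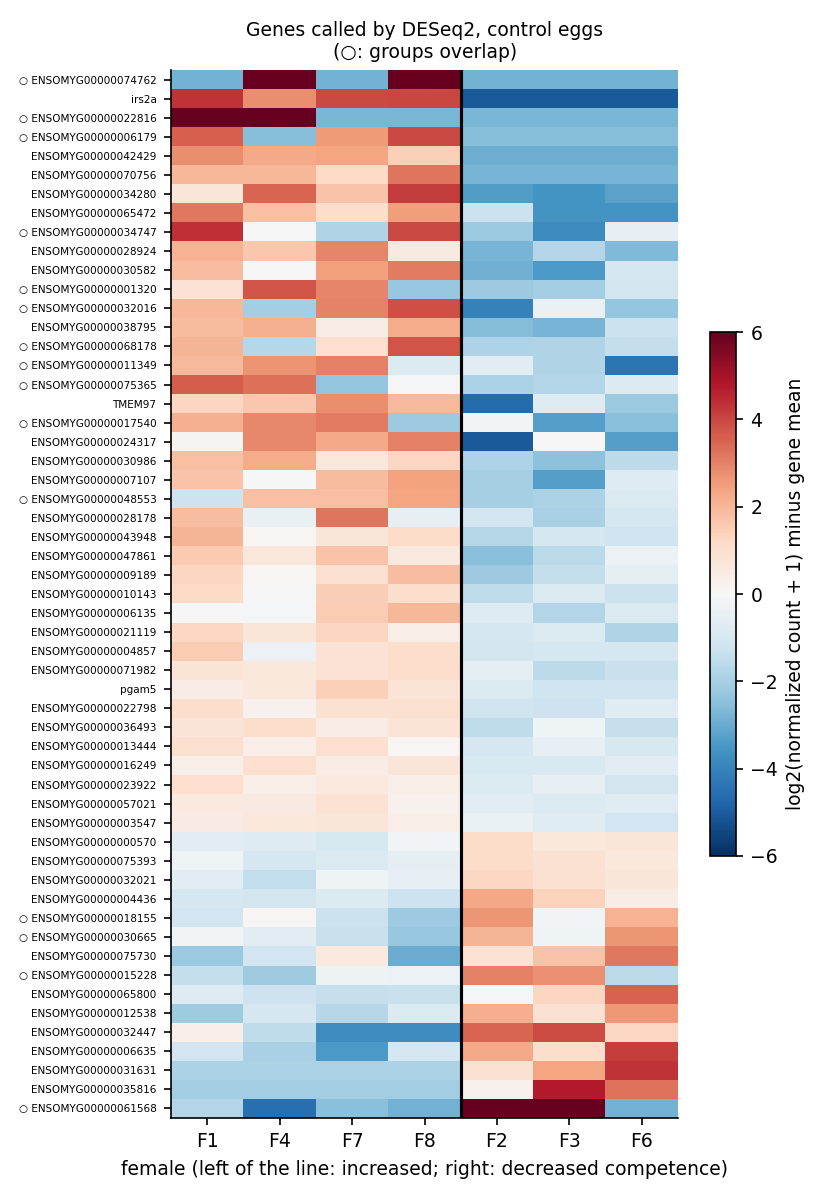
Control eggs: the 55 genes called by DESeq2 (vertical) in the 7 libraries (horizontal, increased competence left of the line), coloured by log2(normalized count + 1) minus the gene's mean, with the scale cut at 6 in both directions. A circle marks the 15 genes whose groups overlap, where high values belong to some clutches of a group only.

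The study chose 53 genes because their level in gynogenetic eggs followed the survival of gynogenotes. That choice was made on the gynogenetic libraries of these 7 females, so the behaviour of these genes in control eggs of the same females is not independent evidence of a direction. In control eggs all 53 were tested, 1 was called by edgeR (irs2a) and 3 by DESeq2 (irs2a, pgam5 and TMEM97). There were 24 with a positive and 29 with a negative log2 fold change, with a median of -0.05, against 0.01 over all genes. The median size of the log2 fold change was 0.69 for these genes and 0.43 for all genes tested. The groups did not overlap for 10 genes (18.87%), 7 higher and 3 lower with increased competence, where all genes gave 5.48%. In gynogenetic eggs, where the genes were chosen, the groups did not overlap for 34 of the 53, against 3.07% of all genes. The sign of the difference was the same in control and gynogenetic eggs for 43 of the 53 genes (69.0% over all genes tested in both), and 9 of the 10 that did not overlap in control eggs also did not overlap, in the same direction, in gynogenetic eggs.

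Besides irs2a, pgam5, TMEM97 and ARL3, the 10 included smim19, alx1, ttc25, hoxb7a and krr1, with edgeR adjusted p-values of 0.999. The tenth, ENSOMYG00000033926, has no name in the sources used here. smim19, a small integral membrane protein, had 23.1, 16.3, 18.1 and 19.5 normalized counts in F1, F4, F7 and F8, against 3.95, 3.34 and 6.55 in F2, F3 and F6. These are low levels in all 7 libraries, with a log2 fold change of 2.03 (SE 1.04). ttc25, a component of the ciliary outer dynein arm docking complex, had 304, 287, 314 and 271 in the increased group, against 174, 187 and 199 in the decreased group. The gap was small but clear of the spread within either group, at 0.65 on the log2 scale (SE 0.41). krr1, a factor of small ribosomal subunit assembly, was lower at 202, 183, 190 and 217, against 253, 315 and 323 in the decreased group (log2 fold change -0.59, SE 0.41).

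**Figure D5:**
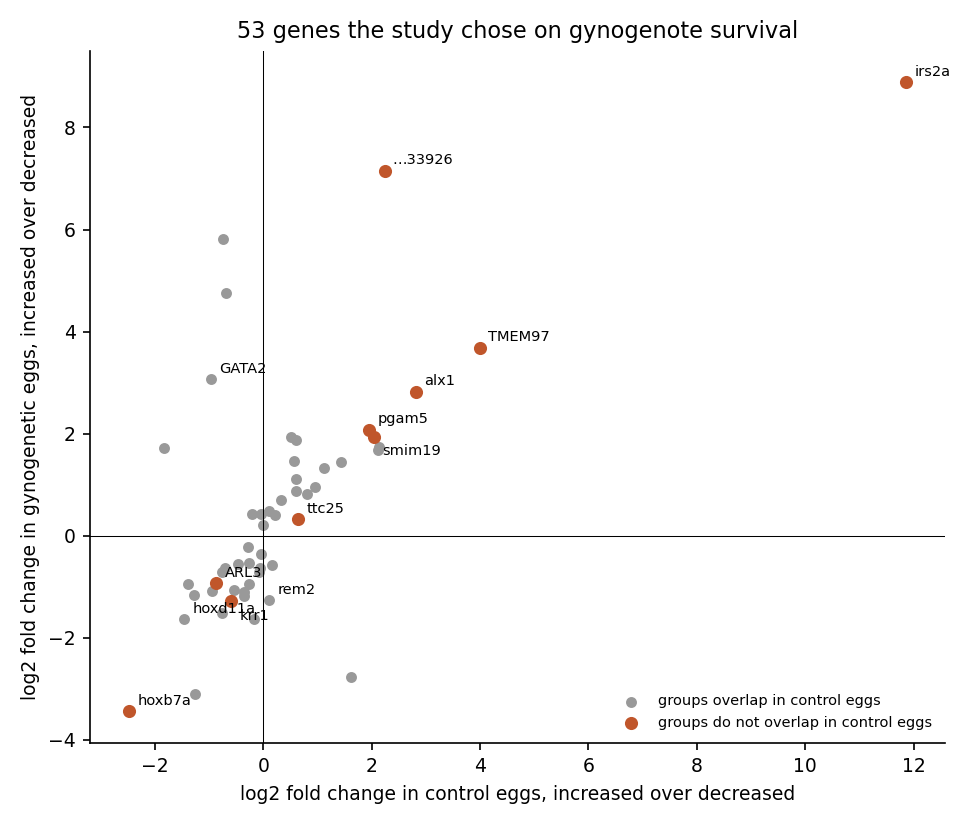
The 53 genes the study chose on gynogenote survival, by edgeR log2 fold change (increased over decreased competence) in control eggs (horizontal) and in gynogenetic eggs (vertical). Orange points are the 10 genes whose groups do not overlap in control eggs; 43 of the 53 have the same sign on both axes, and GATA2 is negative in control and positive in gynogenetic eggs.

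The homeobox and developmental transcription factor list held 8 genes that could be matched and tested. None was called by edgeR, 2 had an unadjusted p below 0.05 (3.72% of all genes did), and 4 were positive and 4 negative. The groups did not overlap for 2 of them, alx1 and hoxb7a, of which 1 was higher and 1 lower, where 5.48% of all genes had no overlap. However, alx1, hoxb7a, GATA2, hoxd11a, sox8a and hesx1 were among the genes the study chose on gynogenote survival in these females. The shares over all genes are therefore not a like reference for this list. alx1, a homeobox gene of craniofacial mesenchyme, had 55.8, 49.0, 66.5 and 47.6 normalized counts in F1, F4, F7 and F8, against 1.97, 20.02 and 0 in F2, F3 and F6. Its log2 fold change was 2.82 (SE 1.15). hoxb7a, a Hox gene of trunk patterning, had 7.70, 0, 27.2 and 10.8 in the increased group, against 94.7, 53.4 and 37.1 in the decreased group. The lower values all belonged to the increased group, and the log2 fold change was -2.47 (SE 1.07). Another Hox gene, hoxd11a, had 110, 125, 93.6 and 0, against 290, 93.4 and 299, and its groups overlapped through F3 (log2 fold change -1.46, SE 1.02).

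GATA2, a zinc-finger transcription factor of blood and endothelial development, had estimates of opposite sign in control and gynogenetic eggs. Neither difference was called by edgeR within a treatment. GATA2 is among the genes the study chose on the gynogenetic libraries of these females. In control eggs it had 173, 426, 453 and 93.1 normalized counts in F1, F4, F7 and F8, against 505, 364 and 823 in F2, F3 and F6. These groups overlapped, and the log2 fold change was -0.97 (SE 0.57; edgeR adjusted p = 0.999). In gynogenetic eggs it had 400, 904, 1306 and 1712 in the increased group, against 114, 49.7 and 210 in the decreased group, with no overlap and a log2 fold change of 3.06 (edgeR adjusted p = 0.877). The difference between the treatments was tested in 1 edgeR model over all 14 libraries with female as a block. It was 4.22 on the log2 scale (adjusted p = 1.97e-17), 1 of 8 genes called in that test (0.0262% of genes tested). That p-value rests on 1 library per female and treatment, with the spread estimated in part from other genes. The gynogenetic values in the test are those on which GATA2 was chosen, so it is not independent evidence of a difference.

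Of the other genes that the study named, most lay close together in the 2 groups of control eggs. No gene whose values are given from here to the end of the Results was called by edgeR in the main fit. The adjusted p rounded to 0.999 or more for each. Caspase 6, an executioner of apoptosis, is the table name of ENSOMYG00000038502, for which another sheet gives a different symbol. It had 55.8, 43.5, 57.4 and 86.6 normalized counts in the increased group, against 45.4, 71.8 and 50.2 in the decreased group (log2 fold change 0.11, SE 0.59). rem2, a small GTPase that modulates calcium channels, had 100.1, 83.4, 99.7 and 56.3, against 29.6, 76.8 and 129 (log2 fold change 0.11, SE 0.62). fstl3, a secreted follistatin-related antagonist of activin, had 107.8, 101.6, 123.8 and 45.5, against 114, 81.8 and 103 (log2 fold change -0.08, SE 0.55). In all 3 the decreased libraries lay within or around the range of the increased ones.

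Log2 fold changes were also small for hesx1 (-0.26, SE 0.35), a homeobox repressor of forebrain development, and for sec61ab (-0.06, SE 0.49), a translocon subunit of the endoplasmic reticulum. Those of lrrc47 (-0.05, SE 0.23) and fbxw11a (-0.00, SE 0.21), an F-box subunit of a ubiquitin ligase, were nearer to 0 still. The interval of the difference, about 2 SE to each side, is wide beside the estimate in each of these genes. The estimates were 0.60 (SE 0.57) for prlhr2a, 0.56 (SE 0.85) for rasl11b, 0.51 (SE 0.50) for ENSOMYG00000012474, named interferon regulatory factor 4-like or irf9 in different sheets, and 0.21 (SE 0.23) for oxsr1a, a kinase of the osmotic stress response. ppm1ab and myrip were near the detection limit, with 0 to 5.78 and 0 to 10.9 normalized counts over the 7 control libraries. The groups also overlapped in 3 further genes of the list. The ecto-ADP-ribosyltransferase-like gene ENSOMYG00000008735 had a log2 fold change of 2.14 (SE 0.85), bcl11ab of 1.44 (SE 0.70) and ppdpfa of 0.81 (SE 0.52).

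The other genes that the study measured by RT-qPCR stood on its list for control survival. In control eggs their log2 fold changes by competence were 0.27 (SE 0.32) for slc9a1b, a sodium/proton exchanger, 0.22 (SE 0.32) for the homeobox cofactor pbx2, and -0.18 (SE 0.31) for dazap2. Their groups overlapped. Of the 221 genes that the study chose because they followed survival of the normally fertilized offspring, none was called by edgeR or had an unadjusted p below 0.05, and none had groups without overlap. There were 105 with a positive and 116 with a negative fold change, and the median size was 0.28 on the log2 scale, against 0.43 over all genes. The females the study placed in the high class for control survival were F3, F4 and F6, a division that crosses competence, so a gene that parts those 3 from the rest cannot also part F2, F3 and F6 from the rest.

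Few cell cycle and mitochondrial genes could be matched, 6 of 50 and 5 of 32 listed symbols. All 6 cell cycle and spindle genes had overlapping groups, where 5.48% of all genes had none, 4 with a positive and 2 with a negative log2 fold change, and a median of 0.04. ccnb1 had an estimate of 0.11 (SE 0.21), tacc3, a spindle protein, of 0.20 (SE 0.24), nedd1, which recruits the gamma-tubulin ring complex, of -0.18 (SE 0.38), and tube1, the epsilon tubulin of centrioles, of -0.48 (SE 0.44). All 5 genes of the mitochondrial list overlapped as well, with a median of 0.08; pgam5, whose protein is also mitochondrial, stood on the apoptosis list. Counts this small show nothing particular to either list. Those named by p were iscua (-0.51, SE 0.49), which builds iron-sulphur clusters, TIMM44 (-0.55, SE 0.54) of the import motor, the mitochondrial chaperone hspa9 (0.18, SE 0.19) and the outer membrane channel vdac2 (0.08, SE 0.24). The cochaperone dnaja1 of the heat shock list had an estimate of -0.25 (SE 0.42), and the cryptochrome gene cry3b, at 0 to 4.33 normalized counts, could not be compared at this depth. Most of these genes come from the study's list for control survival, since a symbol was at hand for 223 of the tested genes only. None of the 221 genes of that list had groups without overlap. The 5.48% over all genes is therefore not a like reference for the cell cycle and mitochondrial lists.

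The remaining named genes with the lowest p overlapped between groups. In the higher direction they were si:dkey-192l18.9 (log2 fold change 2.11, SE 1.06), btf3l4 (0.38, SE 0.22) and mlf2 (0.48, SE 0.31). In the lower direction they were the splicing regulator rbfox2 (-0.96, SE 0.54), the phosphatase regulatory subunit gene ppp2r2ab (-0.85, SE 0.51), ggcx (-1.06, SE 0.67), which carboxylates vitamin K-dependent proteins, unm_sa821 (-1.17, SE 0.76), the atlastin gene atl1 (-0.83, SE 0.56), the natriuretic peptide receptor gene npr1a (-0.70, SE 0.49) and gramd1c (-0.29, SE 0.20). In most of these genes the values followed F3, F4 and F6, the females of the high class for control survival. These females had the highest values of rbfox2, ppp2r2ab, ggcx, unm_sa821 and atl1. They had the lowest of btf3l4 and mlf2, and of si:dkey-192l18.9, where F4 was close to F1. rbfox2, ppp2r2ab, ggcx, unm_sa821, atl1, btf3l4 and mlf2 stand on the study's list for control survival. Their pattern over F3, F4 and F6 was therefore set by that choice and is not a result of this comparison. si:dkey-192l18.9, npr1a and gramd1c stand on its list for gynogenote survival. ggcx had 243, 1257, 272 and 373 normalized counts in F1, F4, F7 and F8, against 310, 1400 and 1679 in F2, F3 and F6, and unm_sa821 had 44.3, 301, 103 and 97.5, against 57.2, 474 and 393.

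The size of difference that 7 libraries can resolve bears on all these values. Over the 23938 genes with a mean of 10 normalized counts or more, the median SE of the log2 fold change was 0.53 and the median size of the estimate 0.34. The edgeR estimate was more than 2-fold for 6971 genes (22.8%), of which 3871 were higher and 3100 lower, yet 1 of these was called. Each library is 1 pool of eggs of 1 female, so the p-values set the group difference against the spread between libraries. That spread holds variation between clutches, egg pools and library preparations together. The class of control survival crosses the groups and was tried as a covariate. Traits that part the same females, measured or not, cannot be told apart from competence.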

How the data were processed

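Counts of reads per gene were deposited by the authors for each library. They trimmed the reads with Flexbar, mapped them with STAR 2.7.5c to the rainbow trout genome OmykA_1.1 and counted them over the Ensembl annotation with HTSeq 1.99.2; FastQC 0.11.9 is also in the submitters' processing notes. Salmonid genomes hold many near-identical gene copies; the handling of reads they share, and the strand option used with this strand-marking kit, are not given in the sources used.

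Here HTSeq's summary lines were left out, and the assigned reads made up 68.0% to 72.9% of assigned, featureless and ambiguous reads in control libraries. Genes with a mean above 1 normalized count over the 7 control libraries were tested with edgeR 4.0.16 (TMM factors, quasi-likelihood F-test, R 4.3.3), with Benjamini-Hochberg adjustment and a threshold of 0.05. The SE of an edgeR estimate was taken as the size of the log2 fold change divided by the square root of the F statistic. It is an approximation, least reliable where a group is at or near 0. Printed normalized counts use DESeq2 size factors over the 14 libraries. The model held the 7 control libraries and competence alone. DESeq2 1.42.0, other scaling and filters, control survival as a covariate, the gynogenetic libraries, the sum of both libraries of a female and leaving out each female were tried as alternatives. An exact permutation test over 35 arrangements was added for single genes. The script was tested on simulated data.

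GEO's labels give the treatment; the competence of each female comes from the study. The members and gene lists were chosen with earlier results of these data known. Genes were named by rule: called genes, the 12 named genes per direction and 5 unnamed genes per direction with the lowest p, the genes in the study's table, its RT-qPCR genes and up to 4 members of each list. Gene symbols come from the study's supplements and positions from RefSeq. Lists for oocyte, interferon, ribosomal protein, follicle cell, blood, liver and sperm genes matched no identifier and gave no result.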

Additional observations from a re-analysis of the deposited data

Results flagged for a closer look

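In 5 genes named above, 1 of the 4 control libraries with increased competence stood apart from the other 3 by Dixon's criterion. There were 61 groups examined, and chance alone gives about 1 in 20 for genes not chosen on these females. Most of the named genes were chosen on survival in these females. In btf3l4, ggcx and tube1, which stand on the study's list for control survival, the library apart was F4. F4 lay near F3 and F6, the other females of the high class for control survival, a pattern set by that choice. ENSOMYG00000008735 had 42.4 normalized counts in F1, against 288 to 305 in the other 3. btf3l4 had 13540 in F4, against 19113 to 20112. ggcx had 1257 in F4, against 243 to 373. npr1a had 154 in F8, against 90.5 to 92.5. tube1 had 513 in F4, against 282 to 293. GATA2 was the gene named above whose competence difference itself differed between treatments, by 4.22 on the log2 scale in gynogenetic against control eggs (edgeR adjusted p = 1.97e-17). The gynogenetic values in that test are those on which the study chose GATA2.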

How the results depend on the processing

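The count of genes called was 1 (1 higher, 0 lower) by edgeR with TMM factors. It was 55 (40 higher, 15 lower) with DESeq2, 0 when genes with a mean under 10 were left out (954 at an unadjusted p below 0.05) and 2, both higher, without a filter. Leaving out 1 female at a time gave 0 to 3 calls, 0 to 2 higher and 0 to 1 lower: none without F2, irs2a and 1 other gene without F1, F3 or F8, and irs2a and 2 others without F6. The adjusted p of irs2a ran from 0.0116 to 0.0578 over these 7 fits and from 7.04e-04 to 0.0534 over the other edgeR settings. Genes with no overlap numbered 956 of those tested in gynogenetic eggs, against 1672 in control eggs. RLE factors, edgeR's own filter, the covariate and the summed libraries left the count at 1.

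Some log2 fold changes changed sign, most of them small in the main fit, though those of GATA2 (-0.97), unm_sa821 (-1.17) and ppm1ab (1.62) were not. With control survival as a covariate they became 0.012 for unm_sa821, 0.0020 for iscua, -0.069 for pbx2, 0.093 for dnaja1, 0.13 for dazap2, -0.046 for ccnb1, -0.11 for vdac2, -0.39 for cry3b, 0.011 for lrrc47 and 0.27 for sec61ab. In gynogenetic eggs they were 3.06 for GATA2, -0.12 for slc9a1b, -2.76 for ppm1ab, 0.12 for dazap2, -1.26 for rem2 and 0.22 for fbxw11a. With both libraries of a female summed they were 1.13 for GATA2, -1.54 for ppm1ab, -0.40 for rem2 and 0.11 for fbxw11a, and with edgeR's filter or a mean of 10 fbxw11a stood at 0.0012. The cause was not tested.

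When 1 female was left out, other estimates near 0 changed sign. Without F1 they were -0.0025 for vdac2 and 0.075 for fbxw11a. Without F2 they were -0.024 for ENSOMYG00000038502, -0.28 for rem2, 0.030 for fstl3 and 0.11 for fbxw11a. Without F3 they were 0.39 for sec61ab. Without F6 they were -0.040 for ccnb1, -0.093 for vdac2 and 0.0087 for fbxw11a. Without F7 they were 0.036 for lrrc47 and 0.0051 for fbxw11a. Without F8 they were -0.10 for ENSOMYG00000038502, 0.16 for fstl3 and 0.012 for sec61ab.

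No paired analysis was possible because each female belongs to 1 competence group, so the groups compared share no female. A median SE of 0.53 on the log2 scale limits what 4 clutches against 3 can show.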
